A study of Diuraphis noxia with 6 samples.

Results

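The 100 genes described here are the expressed genes of a *Diuraphis noxia* transcriptome assembly whose levels were highest in biotype RWA-SA1 relative to biotype RWA-SAM, out of 60140 gene identifiers in all. They were chosen by measured values. The TPM (the level of a transcript scaled for its length and for the total of the library) and the RSEM expected counts of all transcripts carrying a gene identifier were summed in each library. Genes with 10 or more expected counts in all 6 libraries and a mean of 1 TPM or more numbered 12891, and leaving out the 200 of highest mean TPM left 12691. These were ranked by the lowest RWA-SA1 TPM divided by the highest RWA-SAM TPM, and the 100 largest ratios were kept. All 100 genes had passed the floors on low values by that rule, so higher TPM in every RWA-SA1 library is how they were chosen and not a finding.

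*Diuraphis noxia*, the Russian wheat aphid (RWA), is a phloem-feeding pest of cereals that reproduces mostly without males and depends on the bacterium *Buchnera aphidicola*, carried in specialised cells, for nutrients missing from phloem sap. Its biotypes look alike and are told apart by which resistance genes of wheat they can overcome. RWA-SA1 and RWA-SAM are related by descent and differ in virulence towards resistant wheat. In a de novo assembly, reads are joined into transcripts without a genome, transcripts with shared sequence are placed in a cluster, and a cluster is divided into "genes" whose alternative transcripts are called isoforms, so that 1 assembly gene can be a fragment, an allele or a copy of a true gene.

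Each biotype gave 3 RNA-seq libraries, and each library was made from 100 whole aphids pooled over mixed developmental stages, by a stranded mRNA preparation. Both biotypes were kept on the hosts they prefer, and any part of the host plant in a difference between them was not tested. The labels name no treatment of either biotype. The labels do not say that the pools came from separately reared colonies, so p-values measure the spread between pools, and a higher level per cell cannot be told apart from more cells, or more aphids of a stage, that express a gene. The identifiers come without gene names or sequences, so that no function, organism of origin or tissue marker could be assigned, and the genes are named by their assembly identifiers.

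The RWA-SA1 libraries held 36714790 to 47619238 expected counts and the RWA-SAM libraries 32294116 to 40181963. RWA-SA1 replicate 1 stood apart from its biotype: over the log2 CPM (counts scaled to the same library total) of the genes past the floors its mean Pearson correlation was 0.985 with the other RWA-SA1 libraries and 0.991 with the RWA-SAM libraries, while RWA-SA1 replicates 2 and 3 correlated at 0.996. These correlations are across genes, which are not independent replicates. Values without it are given beside the edgeR calls, the ranking and most TPM counts of genes and transcripts whose libraries did not overlap. The last were added after the data were seen. No such count without it was taken on CPM or on TMM-scaled counts.

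Together the 100 genes held 6685, 8599 and 9605 TPM in RWA-SA1 replicates 1, 2 and 3, against 3728, 4156 and 3427 TPM in RWA-SAM replicates 1, 2 and 3. The means were 8296 ± 1484 TPM in RWA-SA1 and 3770 ± 366 TPM in RWA-SAM (SD, n = 3 each). The median gene of the set was at 12.2, 18.1 and 16.7 TPM in RWA-SA1, against 5.6, 7.10 and 5.63 TPM in RWA-SAM. The median of all 12691 genes ran the other way, at 19.2, 17.0 and 16.7 TPM in RWA-SA1 against 20.01, 19.3 and 20.9 TPM in RWA-SAM. On the TPM scale the set was thus raised in libraries whose typical gene was lower in RWA-SA1 replicates 2 and 3 than in any RWA-SAM library.

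The lowest RWA-SA1 TPM was 1.40 to 3.72 times the highest RWA-SAM TPM, with a median of 1.54. This ratio was over 2 in 11 genes and over 1.5 in 57. The ratio of the mean TPM of the biotypes ran between 1.51 and 12.0 with a median of 2.01, and was over 2 in 54 genes, against a median of 0.887 in the other 12591 genes. Most of the set was therefore separated by a modest factor, and large separations were few. Among all 12691 genes ranked, 1433 (11.3%) had every RWA-SA1 library above every RWA-SAM library, and 3752 (29.6%) had every RWA-SA1 library below. Without RWA-SA1 replicate 1 these counts were 2544 above and 6912 below. On counts scaled by the trimmed mean of M-values (TMM, a scaling that takes most genes as unchanged), the count with every RWA-SA1 library above was 2824 (22.3%), with all 100 genes of the set among them, and the count below was 2634 (20.8%). Which direction was the more common thus depended on the scale.

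**Figure D1:**
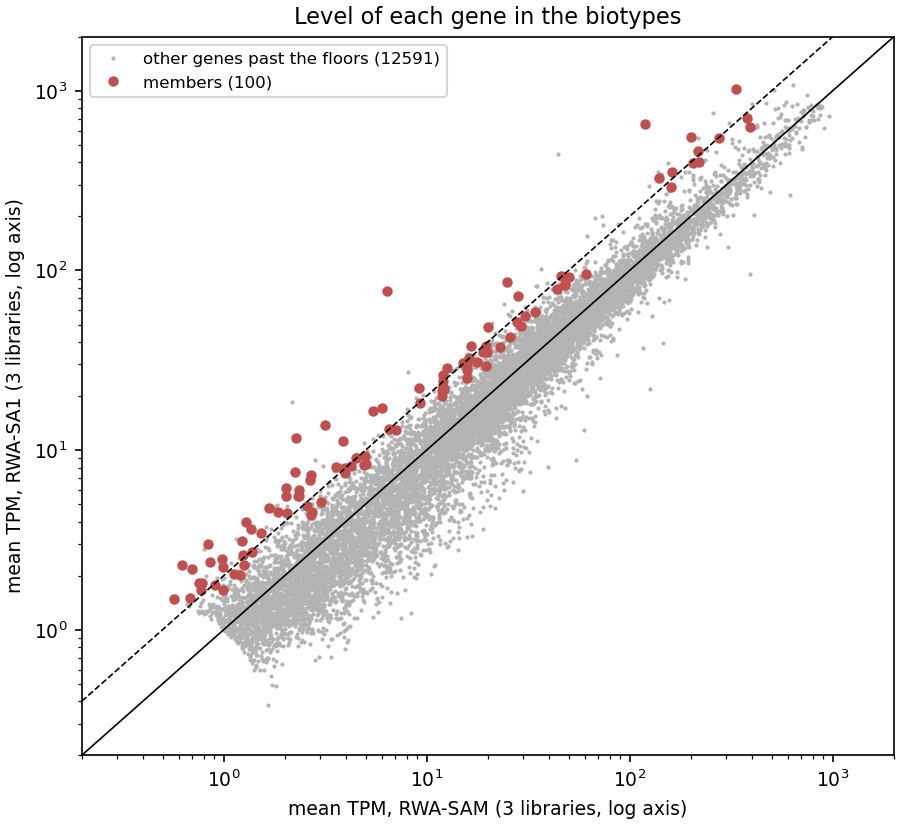
Mean TPM over 3 RWA-SA1 libraries (vertical log axis) against mean TPM over 3 RWA-SAM libraries (horizontal log axis) for 12691 genes, with the 100 chosen genes in red and the other 12591 in grey. The solid line marks equal levels and the dashed line a ratio of 2; 54 of the red points lie above the dashed line, and they run over the whole range of levels.

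The genes of highest rank were mostly of low to moderate level. TRINITY_DN7593_c0_g1, ranked first, had 15.1, 12.5 and 13.9 TPM in RWA-SA1 replicates 1, 2 and 3, against 3.15, 3.35 and 2.96 TPM in RWA-SAM replicates 1, 2 and 3. TRINITY_DN3598_c0_g1 had 9.36, 5.90 and 7.32 TPM in RWA-SA1, against 1.93, 2.45 and 2.39 TPM in RWA-SAM. TRINITY_DN2940_c0_g2 had 13.3, 17.3 and 18.8 TPM in RWA-SA1, against 5.21, 5.73 and 5.44 TPM in RWA-SAM. The first of these was assembled as 11 short transcripts of at most 477 bases, while the last held a transcript of 5629 bases. In RWA-SAM the first had 11, 11 and 12 expected counts, near the floor of 10. There the second had 20, 23 and 27 and the last 621, 606 and 726. In the edgeR quasi-likelihood fit to the counts, their log2 fold changes of RWA-SA1 over RWA-SAM were 2.32 ± 0.24, 1.93 ± 0.23 and 1.78 ± 0.18 (SE), which describe the chosen genes and test nothing.

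TRINITY_DN4771_c0_g1 was at 1.57, 1.48 and 1.40 TPM in RWA-SA1, against 0.62, 0.51 and 0.57 TPM in RWA-SAM. TRINITY_DN3048_c0_g5 was at 3.08, 3.70 and 5.15 TPM in RWA-SA1, against 1.39, 1.29 and 1.20 TPM in RWA-SAM. TRINITY_DN1190_c0_g1 was at 7.64, 5.83 and 5.03 TPM in RWA-SA1, against 1.8, 1.89 and 2.39 TPM in RWA-SAM. In the first of these the RWA-SA1 libraries lay close together, and in the last RWA-SA1 replicate 1 was the highest of the 6 libraries. TRINITY_DN2558_c0_g1 was at 3.36, 3.79 and 3.74 TPM in RWA-SA1, against 1.07, 1.61 and 1.42 TPM in RWA-SAM. TRINITY_DN390_c4_g1 was at 8.43, 7.54 and 8.19 TPM in RWA-SA1, against 3.31, 3.73 and 3.72 TPM in RWA-SAM. The log2 fold changes of these 5 genes ran between 1.35 and 1.85 in the edgeR fit. In RWA-SAM TRINITY_DN3048_c0_g5 had 19, 16 and 18 expected counts, and the others had 48 or more in every library.

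A pair of the 10 genes of highest rank differed from the others, TRINITY_DN1067_c0_g1 by its level and TRINITY_DN32833_c0_g1 by its spread in RWA-SA1. TRINITY_DN1067_c0_g1, which had the most transcripts of the set (14), was at 302 TPM, 312 TPM and 362 TPM in RWA-SA1, against 135 TPM, 145 TPM and 140 TPM in RWA-SAM. TRINITY_DN32833_c0_g1, a single transcript of 241 bases, was at 16.5, 152 and 61.8 TPM in RWA-SA1, against 5.89, 7.53 and 5.8 TPM in RWA-SAM. Its fold change was the largest of the set, 3.95 on the log2 scale, and also the least precise (SE 0.86), since its RWA-SA1 libraries spread over 9.19-fold. It had only 11, 13 and 11 expected counts in RWA-SAM. Every RWA-SA1 library still lay above every RWA-SAM library, RWA-SA1 replicate 1 by the least. Another gene assembled into many transcripts (11), TRINITY_DN298_c4_g1, was at 23.7, 31.6 and 35.0 TPM in RWA-SA1, against 15.03, 16.5 and 16.0 TPM in RWA-SAM.

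**Figure D2:**
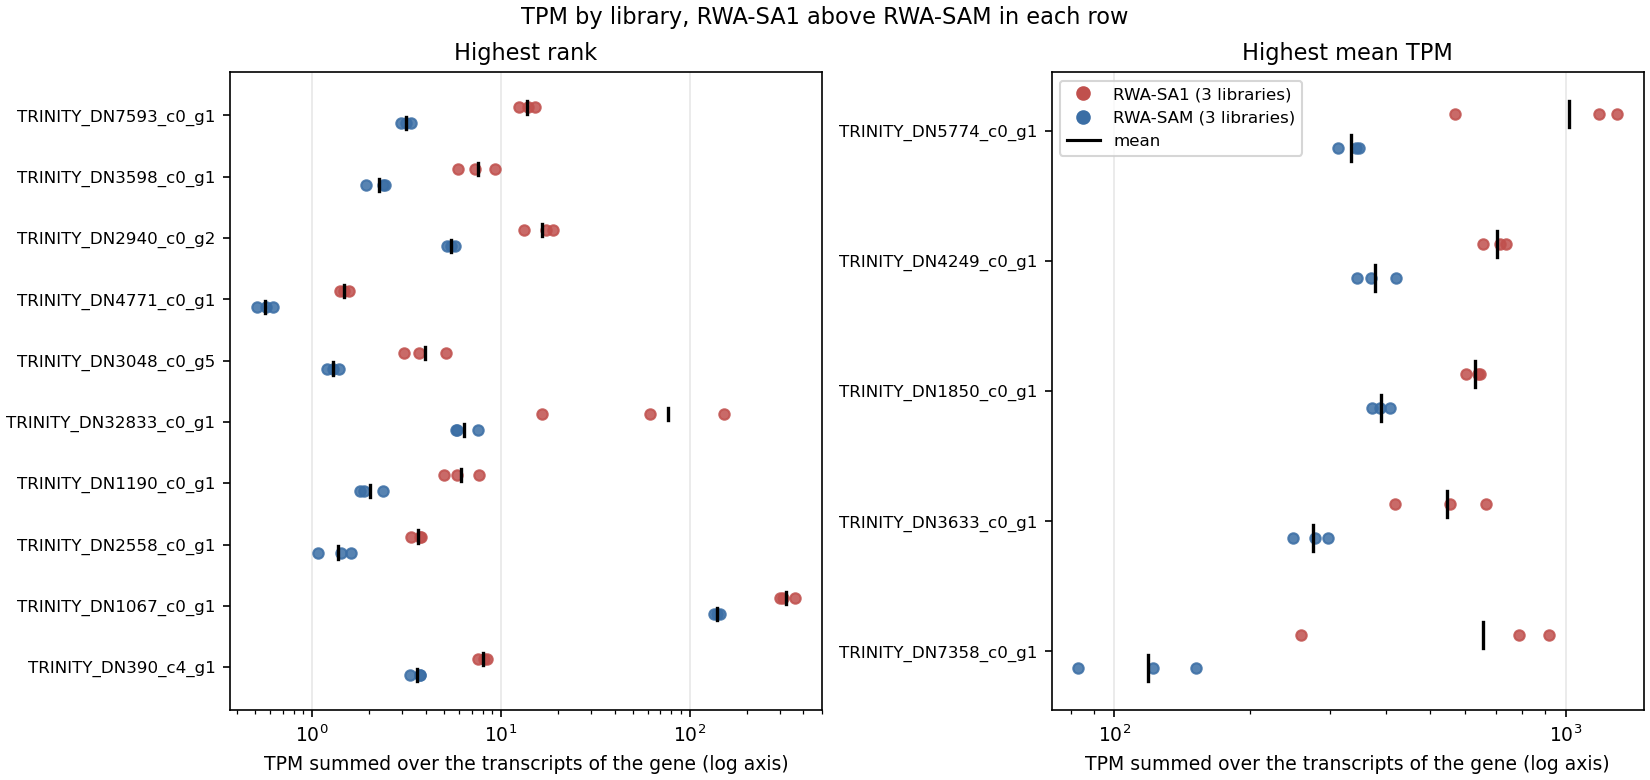
TPM per library (horizontal log axis) of the 10 genes of highest rank (left panel) and the 5 of highest mean TPM (right panel). In each row the red points above are the 3 RWA-SA1 libraries, the blue points below the 3 RWA-SAM libraries, and the black bars are their means. The RWA-SA1 points of TRINITY_DN32833_c0_g1, TRINITY_DN7358_c0_g1 and TRINITY_DN5774_c0_g1 are spread widely, with 1 library near the RWA-SAM points.

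The 5 genes of highest mean TPM gave much of the TPM of the set. TRINITY_DN5774_c0_g1 was at 569, 1186 and 1299 TPM in RWA-SA1 replicates 1, 2 and 3, against 349, 342 and 313 TPM in RWA-SAM. TRINITY_DN7358_c0_g1 was at 259, 790.3 and 917 TPM in RWA-SA1, against 83.3, 152 and 122 TPM in RWA-SAM. TRINITY_DN3633_c0_g1 was at 419, 553 and 665 TPM in RWA-SA1, against 279, 298 and 249 TPM in RWA-SAM. In all 3 genes RWA-SA1 replicate 1 was the lowest library of its biotype. TRINITY_DN4249_c0_g1 was at 717, 657 and 737 TPM in RWA-SA1, against 370.4, 421 and 344 TPM in RWA-SAM. TRINITY_DN1850_c0_g1 was at 638, 602 and 647 TPM in RWA-SA1, against 388, 408 and 373 TPM in RWA-SAM. These last genes showed no such gap, and their RWA-SA1 libraries differed from each other by less than the biotypes did.

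The limit of the set fell in a dense part of the ranking. The last genes inside were TRINITY_DN4609_c0_g1, TRINITY_DN1801_c0_g1 and TRINITY_DN4710_c0_g1, with ratios of 1.402, 1.402 and 1.401, and the first outside were TRINITY_DN20512_c0_g2, TRINITY_DN389_c1_g1 and TRINITY_DN984_c2_g1, with 1.399, 1.398 and 1.398. TRINITY_DN4710_c0_g1 was at 48.3, 51.8 and 47.1 TPM in RWA-SA1 against 26.6 to 33.6 TPM in RWA-SAM, and TRINITY_DN389_c1_g1 was at 24.1, 40.2 and 38.8 TPM in RWA-SA1 against 17.2, 16.7 and 13.7 TPM in RWA-SAM. The separation in TPM was thus similar on either side of the limit. Ranked on CPM instead, 87 of the 100 genes were kept, on TMM-scaled CPM 71, and on the ratio of mean TPM 47.

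Because TPM depends on which isoform lengths the reads are assigned to, the same ratio was taken on CPM. It had a median of 1.52 over the set and was above 1 in 98 genes. The genes were chosen on the same libraries and no share over all genes was taken on CPM, so nothing is read from this count. The 2 genes below 1 were TRINITY_DN965_c1_g2, at 0.93, and TRINITY_DN7027_c0_g2, at 0.97, both with a short transcript as their most abundant isoform (551 and 320 bases). For these 2 genes the separation between biotypes was present in TPM and on TMM-scaled counts, and absent in CPM scaled by library totals. In TRINITY_DN7027_c0_g2 RWA-SA1 replicate 1 and RWA-SAM replicate 1 both had 15 expected counts. On TMM-scaled counts these libraries were thus set apart by the scaling alone.

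In the edgeR quasi-likelihood test of the whole table, 1556 of 16358 genes passed an adjusted p of 0.05 (Benjamini-Hochberg), 910 higher and 646 lower in RWA-SA1. Of the set 95 of 100 passed, all higher, where 5.56% of all genes tested passed in that direction. Nothing is read from this share, since the same contrast chose the genes. Their log2 fold changes ran between 0.30 and 3.95 with a median of 1.21, beside a median of -0.01 over all genes tested, and 80 were above 1. DESeq2 called 97 of the 100, beside 13.2% of all genes called higher.

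These calls depended on the libraries. Without RWA-SA1 replicate 1, edgeR called 99 of the 100 genes higher, beside 24.8% of all genes tested. Without RWA-SA1 replicate 2 or 3, or without any 1 of RWA-SAM replicates 1, 2 and 3, it called 0 genes and 0 of the set, although 3902 to 5037 genes, 98 of the set among them, were under an unadjusted p of 0.05 in these fits. DESeq2 was run on all 6 libraries only. The median log2 fold change of the set was 1.10 to 1.37 over the 6 fits that each left out 1 library, a range limited by how the genes were chosen.

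The 5 genes that edgeR did not call were TRINITY_DN9311_c0_g1, TRINITY_DN8062_c0_g1, TRINITY_DN5878_c0_g2, TRINITY_DN7027_c0_g2 and TRINITY_DN965_c1_g2. They were named after their values were seen. All but the last had few reads, with a lowest expected count of 11 to 18. TRINITY_DN9311_c0_g1 was the nearest to the threshold in edgeR (adjusted p = 0.053) and had 24, 40 and 47 expected counts in RWA-SA1, against 16, 15 and 18 in RWA-SAM. TRINITY_DN965_c1_g2 had 176, 184 and 214 expected counts in RWA-SA1, against 134, 137 and 183 in RWA-SAM, and an adjusted p of 0.19 in edgeR. Its unscaled counts overlapped between biotypes, while its TPM and its TMM-scaled counts did not. Of the whole set 26 genes had a lowest count under 50 and 29 had 1000 or more.

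The genes of the set had an order among libraries that most genes did not have. RWA-SA1 replicate 1 was the lowest RWA-SA1 library in 65 of the 100 genes, against 25.3% of the other 12591 genes, and RWA-SA1 replicate 3 was the highest in 48, against 16.5%. Among RWA-SAM libraries replicate 2 was the highest in 60 genes of the set, against 15.6% of the others, and replicate 3 in 17, against 60.5% of the others. The order in the other genes was nearly the reverse: RWA-SA1 replicate 1 was the highest of its biotype in 62.9% of them and in 19 genes of the set. The rule uses the lowest RWA-SA1 and the highest RWA-SAM library, so these counts are a description of the chosen genes.

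The mean TPM of RWA-SA1 replicates 2 and 3 was 1.20 times that of replicate 1 in the median gene of the set, against 0.874 in the median of the others. In 81 genes of the set it was within 1.5-fold, in 17 it was over 1.5 times and in 2 it was under that range. The 4 genes where it was over 2 times included TRINITY_DN32833_c0_g1, TRINITY_DN7358_c0_g1 and TRINITY_DN5774_c0_g1. That replicate 1 lay above every RWA-SAM library in all 100 genes is set by the rule. Within RWA-SA1 the highest library was 1.37 times the lowest in the median gene of the set (1.34 in the others), and within RWA-SAM 1.20 times (1.17 in the others).

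**Figure D3:**
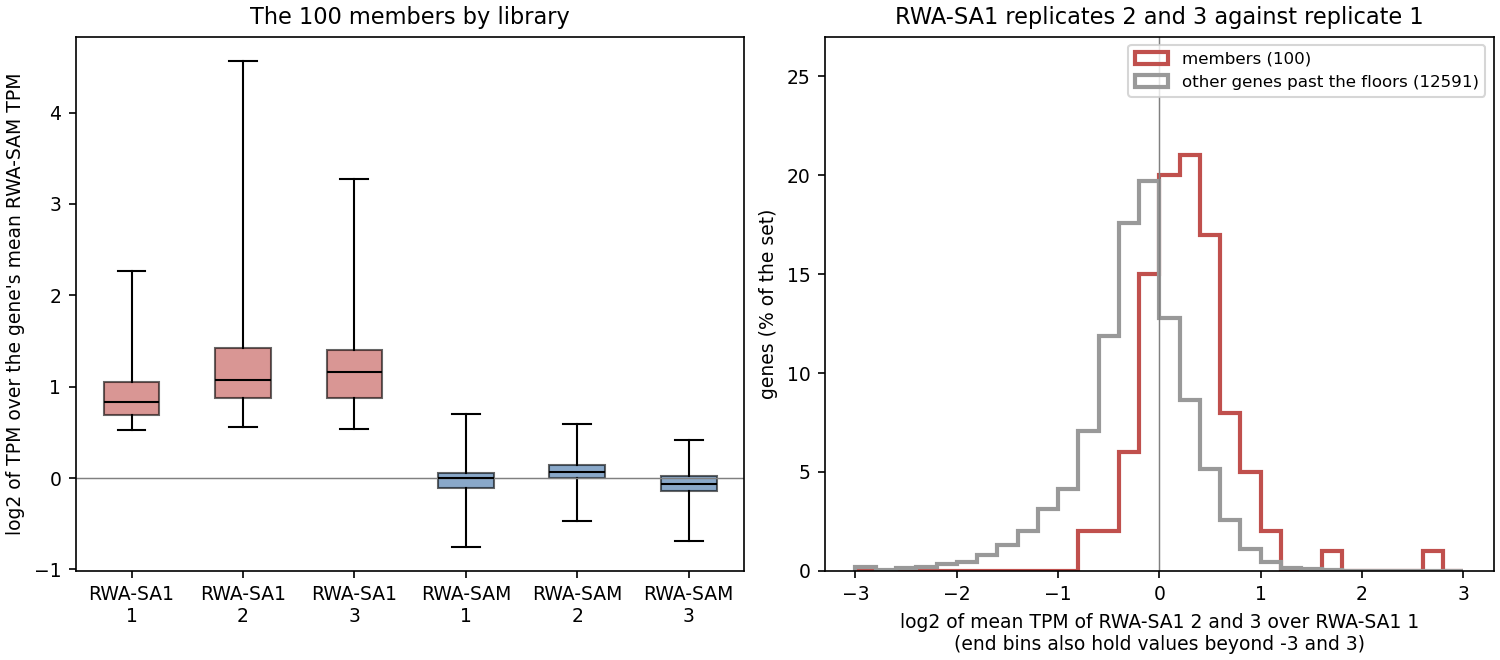
Left, log2 of the TPM in each library over the mean RWA-SAM TPM of the gene, for the 100 genes; boxes show the quartiles, the black line the median and whiskers the lowest and highest gene. Right, the percentage of genes by log2 of the mean TPM of RWA-SA1 replicates 2 and 3 over replicate 1. The medians on the left are 0.83, 1.07 and 1.16 in RWA-SA1 and -0.00, 0.07 and -0.06 in RWA-SAM, and the red outline of the set on the right lies to the right of the grey outline of the other genes.

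When RWA-SA1 replicate 1 was left out of the ranking, 43 of the 100 genes were kept and 57 entered. In 50 of those 57 replicate 1 also lay above all RWA-SAM libraries, in 4 it lay within their range and in 3 below it. The RWA-SAM values it is set against also chose these genes, and the floors used replicate 1, so nothing is read from these counts. The 11.3% given before counts genes with every RWA-SA1 library above, not replicate 1 alone, and is no measure for them. Leaving out each of the other libraries kept between 59 (RWA-SAM replicate 2) and 77 (RWA-SA1 replicate 3) of the genes. Which genes fell inside the limit thus changed with single libraries.

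Fragment length differed between libraries, with overlap between the biotypes. The mean difference between length and effective length of transcripts of 2000 bases or more, which follows the length of the sequenced fragments, was 169.9, 158.5 and 152.7 bases in RWA-SA1 against 170.2, 167.1 and 180.9 bases in RWA-SAM. Its part in the level of these genes was not tested.

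In length and structure the set resembled the other genes. The longest transcript had a median of 1872.5 bases in the set and 1902 bases in the others, and the number of transcripts a median of 2 in both. A single transcript was held by 44 genes of the set (41.3% of the others) and 5 or more transcripts by 20 (19.3%). The set differed more in level. Its median mean TPM was 10.5, against 19.1 in the others, and 49 of its genes were under 10 TPM, against 36.4% of the others. At the other end 12 genes of the set had a mean of 100 TPM or more, against 10.1% of the others. These values were compared without a test, as level enters the rule.

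The rule ranked sums over isoforms and did not use the division of a gene's TPM among them directly. The sums still depend on the isoform lengths to which reads were assigned. More reads on short isoforms in RWA-SA1 could thus raise a gene's rank. The isoform values below come from the same libraries and the same contrast, and are not independent of the choice of the genes. The set had 56 genes with more than 1 transcript, and 220 of their transcripts had a mean of 0.1 TPM or more. Of these transcripts 108 had every RWA-SA1 library above every RWA-SAM library, 2 had every one below and 110 overlapped, where among 31968 such transcripts of all genes past the floors 9.58% were above and 16% below. Without RWA-SA1 replicate 1 it was 127 above and 9 below, beside 16.8% above and 31.6% below among those 31968 transcripts. In 12 genes every such transcript was above, and no share over all genes was taken for this count. The most abundant transcript was above in 46 genes and not in 10, beside 12.8% among all genes past the floors with more than 1 transcript. Without RWA-SA1 replicate 1 it was above in 47 genes and below in 1, beside 22.8% above and 42.2% below among all such genes. The transcripts make up the sum that the rule ranked, the most abundant the largest part, so nothing is read from these counts and shares.

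Isoform usage was tested with edgeR's diffSpliceDGE over the whole table, where 559 of 6785 genes (8.24%) passed an adjusted p of 0.05. Of the 47 genes of the set that could be tested, 5 passed (10.6%), a share near that of all genes. Without RWA-SA1 replicate 1 it was 11 of 48, beside 26.7% of all genes, and without RWA-SA1 replicate 2 it was 0 of 49, beside 3.2% of all genes, with 8 under an unadjusted p of 0.05. The limma diffSplice alternative called 3 of 47, beside 13.7% of all genes. The 5 genes below passed in 2 to 5 of the 8 or 9 alternative settings in which each was tested.

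In TRINITY_DN5349_c0_g1 isoform i7 (1853 bases) held 85.5%, 84.4% and 84.6% of the gene's TPM in RWA-SA1, against 76.0%, 78.4% and 77.5% in RWA-SAM (edgeR adjusted p = 0.012 for the gene). Isoform i3 (1399 bases) held 3.94%, 3.63% and 4.71% in RWA-SA1, against 9.48%, 7.46% and 7.56% in RWA-SAM. The main isoform thus took a larger share in RWA-SA1, without overlap between the biotypes. In TRINITY_DN1092_c0_g1 the minor isoform i1 (1643 bases) held 6.24%, 10.5% and 8.51% in RWA-SA1, against 3.62%, 0.81% and 1.88% in RWA-SAM (edgeR adjusted p = 0.021 for the gene).

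In TRINITY_DN4771_c0_g1 isoform i2 (5452 bases) held 35.7%, 49.3% and 100% in RWA-SA1 and was listed at 0 in all 3 RWA-SAM libraries (edgeR adjusted p = 0.034 for the gene). Its other isoforms, i1 (5449 bases) and i3 (5346 bases), are nearly as long, and the gene is at most 1.57 TPM. In TRINITY_DN3404_c0_g1, the gene with the longest transcript of the set (10002 bases), the short isoform i7 (632 bases) held 26.2%, 18.5% and 18.4% in RWA-SA1, against 0%, 0.69% and 3.55% in RWA-SAM (edgeR adjusted p = 0.036 for the gene). Isoform i9 (5204 bases) held 47.1%, 67.3% and 65.9% in RWA-SA1, against 78.4%, 74.97% and 73.5% in RWA-SAM. The whole gene was at 60.5, 58.7 and 57.1 TPM in RWA-SA1, against 33.2, 33.4 and 35.7 TPM in RWA-SAM. The short isoform therefore made up part of the separation in TPM, and the log2 fold change from counts was 0.67 ± 0.07 (SE).

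In TRINITY_DN98_c0_g2 isoform i2 (3393 bases) moved against its gene. It held 1.11%, 2.96% and 4.60% in RWA-SA1, against 16.9%, 8.25% and 33.6% in RWA-SAM (edgeR adjusted p = 0.041 for the gene). Its own level was 0.05, 0.18 and 0.22 TPM in RWA-SA1, against 0.52, 0.25 and 0.99 TPM in RWA-SAM. It was 1 of only 2 transcripts of the 220 with every RWA-SA1 library below every RWA-SAM library, the other being TRINITY_DN10372_c0_g1_i8.

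**Figure D4:**
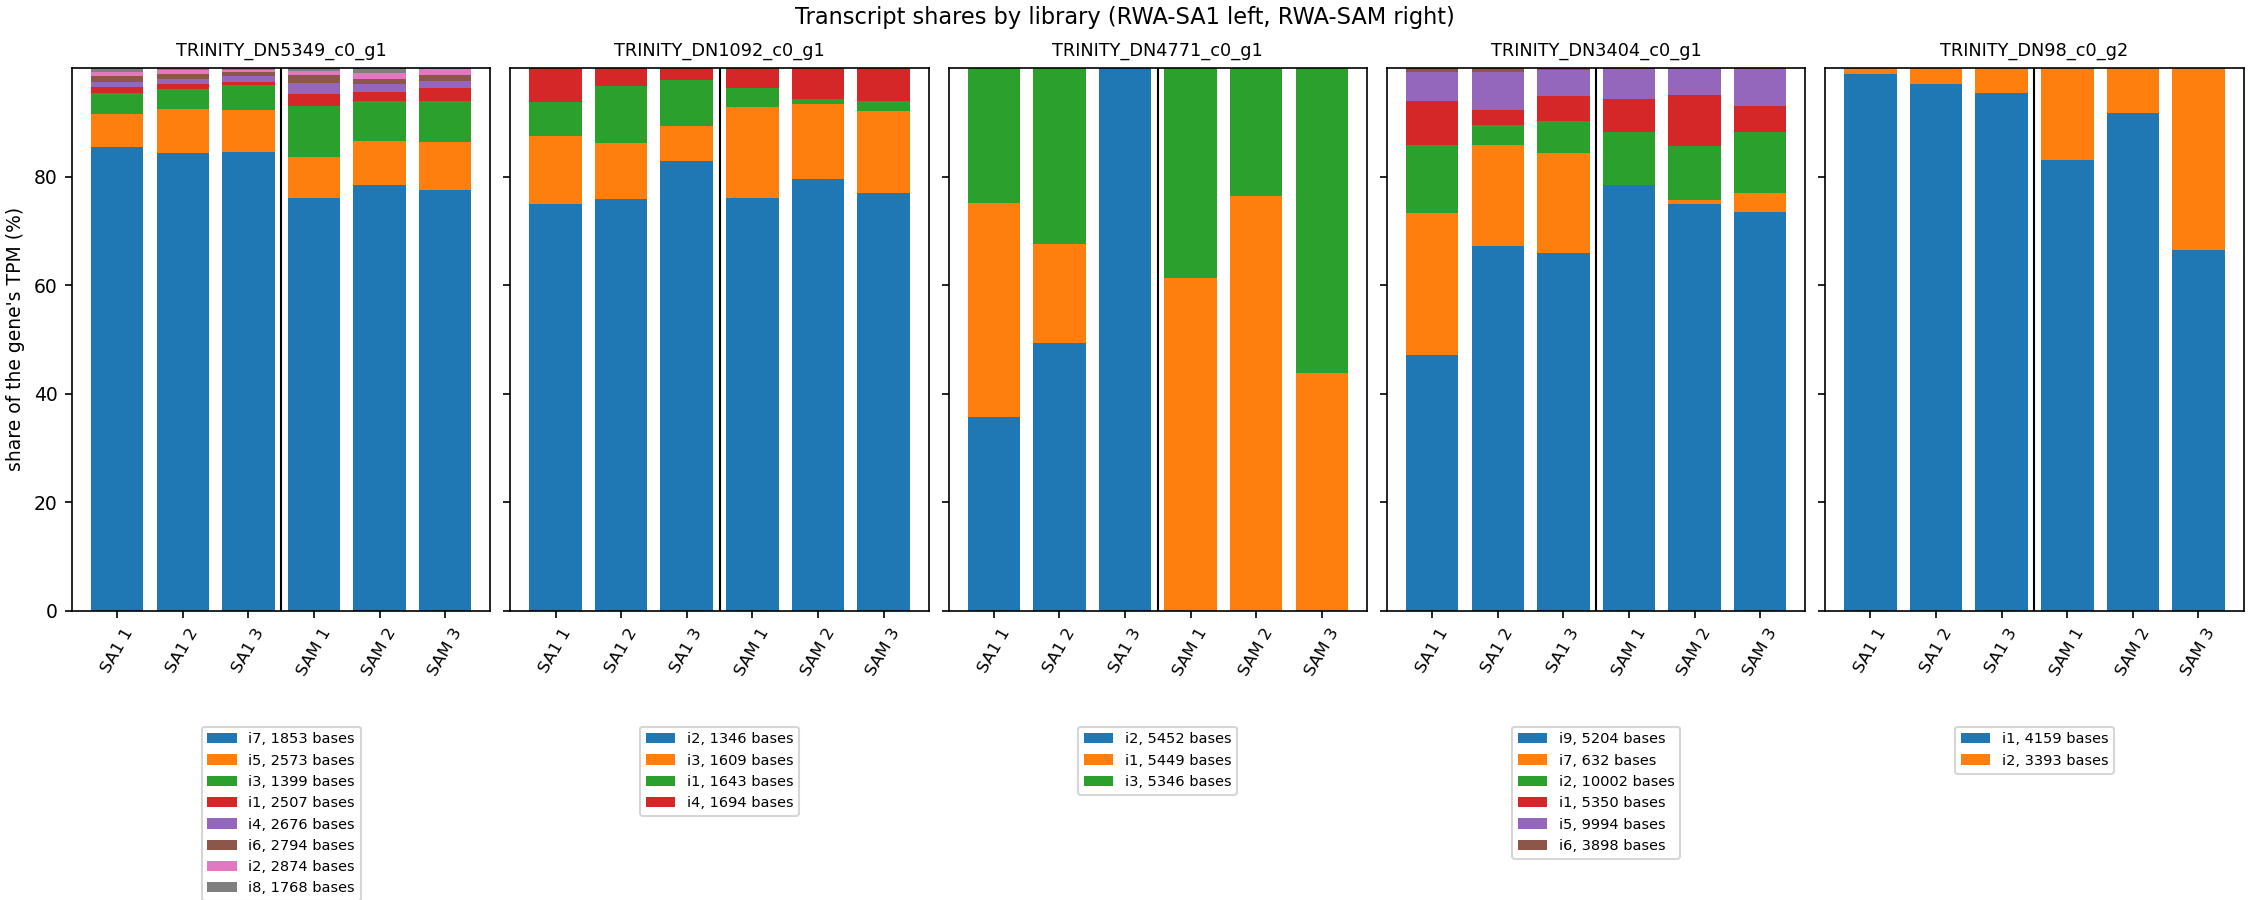
Share of each gene's TPM (%, vertical axis) held by each of its transcripts in RWA-SA1 replicates 1 to 3 (left of the line) and RWA-SAM replicates 1 to 3 (right of the line), for the 5 genes past the isoform usage test. Isoform i2 of TRINITY_DN4771_c0_g1 reaches 100% in 1 RWA-SA1 library and is missing in the RWA-SAM bars, and isoform i2 of TRINITY_DN98_c0_g2 is largest in RWA-SAM replicate 3.

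Of all 271 transcripts of the set, 4 were listed at 0 in every RWA-SAM library and above 0 in every RWA-SA1 library, each in a different gene, and 0 had the opposite pattern. Over all 38668 transcripts of the genes past the floors these patterns were found in 0.316% and 0.272%, and nothing is read from the difference, since the genes were chosen for higher RWA-SA1 levels. Besides TRINITY_DN4771_c0_g1_i2 these were TRINITY_DN7593_c0_g1_i12, at 0.97, 1.52 and 2.12 TPM in RWA-SA1, TRINITY_DN4905_c0_g1_i1, at 0.43, 0.45 and 0.54 TPM, and TRINITY_DN6959_c0_g1_i5, at 0.72, 0.27 and 0.15 TPM. In the same order these last transcripts had few expected counts in RWA-SA1: 2.88, 5.61 and 9.03, then 9.06, 10.97 and 14.59, then 8.19, 3.61 and 2.21. With so few counts, a 0 in RWA-SAM does not show that an isoform was absent there. The genes of all 4 transcripts had TPM in the RWA-SAM libraries through other isoforms, and how RSEM divided reads among isoforms was not tested.

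Over the set as a whole the isoform division gave no constant direction. The median share of the most abundant isoform over the 56 genes was 68.7% ± 1.97 in RWA-SA1 and 69.5% ± 2.72 in RWA-SAM (SD, n = 3 each; difference -0.77 percentage points, exact two-sided permutation p = 0.8). The TPM-weighted transcript length had a median of 1848 ± 22.2 bases in RWA-SA1 and 1820 ± 52.7 bases in RWA-SAM (SD, n = 3 each; difference 27.3 bases, exact two-sided permutation p = 0.4). As a mean over the genes this length was 2061 ± 2.73 bases in RWA-SA1 and 2092 ± 1.53 bases in RWA-SAM, a difference of -31.4 bases in the other direction, without overlap of the libraries (exact permutation p = 0.1). For the same reads, shorter isoforms in RWA-SA1 give a higher summed TPM. The rule could thus favour this direction, and nothing is read from the difference of the means. The smallest p that 3 libraries against 3 can give is 0.1, so that these tests cannot pass 0.05 and do not show that the biotypes were alike.

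The genes were spread over 98 assembly clusters, of which 2 held 2 genes of the set each. In cluster TRINITY_DN98_c0, TRINITY_DN98_c0_g3 was at 24.8, 25.2 and 22.5 TPM in RWA-SA1, against 12.0, 12.7 and 11.4 TPM in RWA-SAM. TRINITY_DN98_c0_g2 was at 4.52, 6.09 and 4.78 TPM in RWA-SA1, against 3.08, 3.03 and 2.95 TPM in RWA-SAM. The remaining gene of that cluster, TRINITY_DN98_c0_g1, was at 20.6, 22.0 and 21.1 TPM in RWA-SA1, against 15.4, 16.4 and 16.7 TPM in RWA-SAM, so that all 3 genes were separated in 1 direction. In cluster TRINITY_DN5821_c0, TRINITY_DN5821_c0_g2 was at 3.35, 5.95 and 5.05 TPM in RWA-SA1, against 1.23, 1.94 and 1.84 TPM in RWA-SAM, and TRINITY_DN5821_c0_g1 at 4.53, 7.14 and 5.01 TPM in RWA-SA1, against 2.46, 2.63 and 1.87 TPM in RWA-SAM. Genes of a cluster share sequence, and reads can be divided between them, so they are not independent.

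The clusters held 63 further genes, of which 33 passed the floors. Of these 8 had every RWA-SA1 library above every RWA-SAM library, 7 had every one below and 18 overlapped, beside 11.3% above and 29.6% below among all genes past the floors. Without RWA-SA1 replicate 1 it was 14 above and 11 below of the 33, beside 2544 above and 6912 below among the 12691 genes ranked. Some genes of a cluster differed in direction on the TPM scale. TRINITY_DN157_c0_g2, of the set, was at 3.65, 5.55 and 7.37 TPM in RWA-SA1, against 1.96, 2.17 and 1.99 TPM in RWA-SAM, while TRINITY_DN157_c0_g1 was at 293, 285 and 288 TPM in RWA-SA1, against 436, 381 and 517 TPM in RWA-SAM. TRINITY_DN598_c0_g2, of the set, was at 89.5, 76.7 and 112 TPM in RWA-SA1, against 48.8, 52.2 and 37.5 TPM in RWA-SAM, while TRINITY_DN598_c0_g1 was at 6.14, 1.84 and 1.47 TPM in RWA-SA1, against 8.44, 6.73 and 11.6 TPM in RWA-SAM. These examples were chosen after their values were seen. In the cluster with the most genes, TRINITY_DN3048_c0, only TRINITY_DN3048_c0_g5 of 8 genes had every RWA-SA1 library above every RWA-SAM library.

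**Figure D5:**
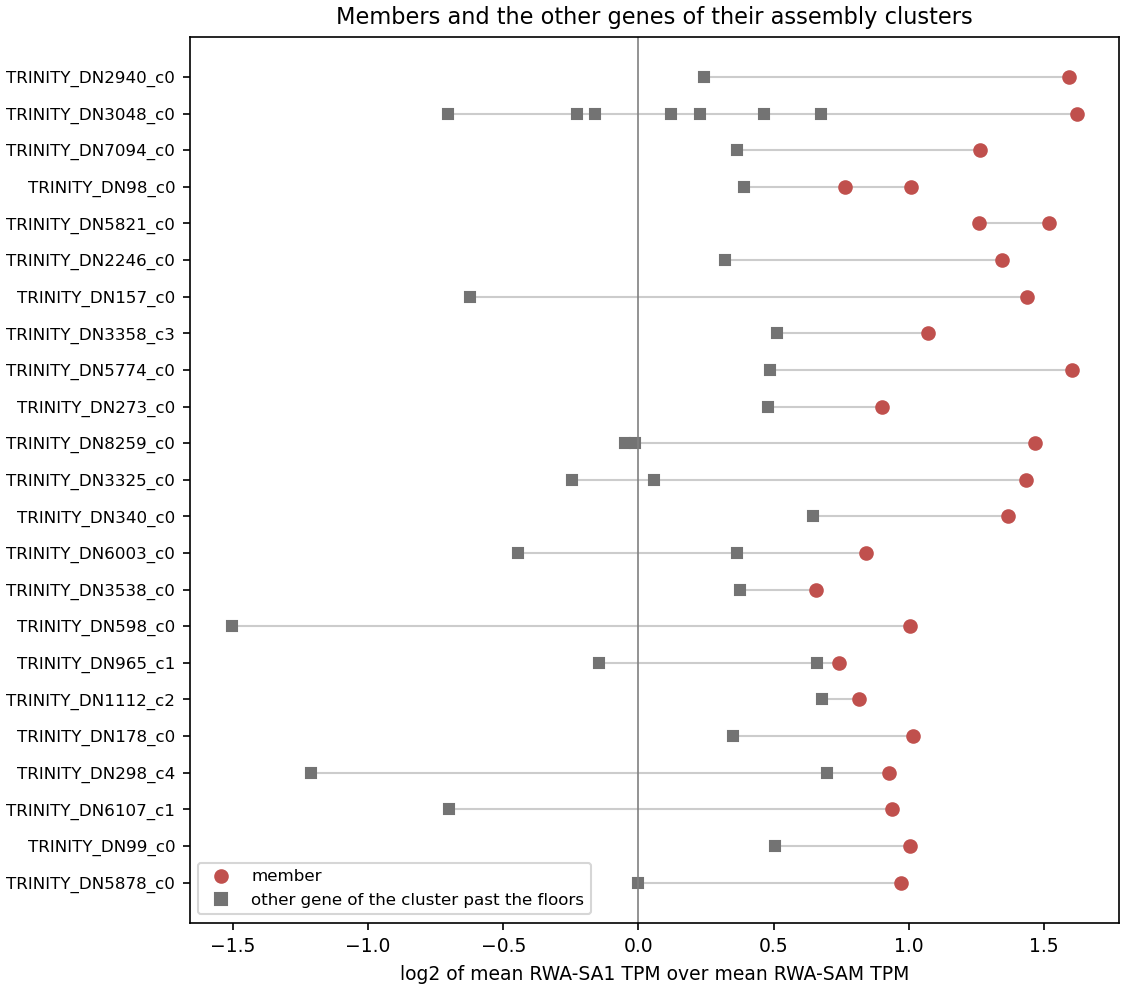
Log2 of mean RWA-SA1 TPM over mean RWA-SAM TPM (horizontal axis) for the genes of the 23 assembly clusters that held a gene of the set and 2 or more genes past the floors in all, 1 cluster per row. Red circles are the 25 genes of the set and grey squares the other 33 genes of these clusters, which lie on both sides of 0.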

How the data were processed

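RNA from whole aphids of RWA-SA1 and RWA-SAM was measured in 3 libraries per biotype, grouped by the titles of their labels. RSEM was run by the authors on an assembly of 90781 transcripts, and the deposited expected counts, TPM and isoform percent values are its output for each library. The submitters' processing notes also name FastQC and Trimmomatic 0.39, while an aligner is not given in the sources. FPKM was not used.

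Expected counts were summed by gene identifier, rounded, filtered by filterByExpr, scaled by TMM and compared two-sided by the quasi-likelihood test of edgeR 4.0.16 under R 4.3.3 (adjusted p of 0.05, Benjamini-Hochberg), and isoform usage with diffSpliceDGE on rounded transcript counts. The SE of an edgeR log2 fold change was computed as its absolute value divided by the square root of the F statistic of the quasi-likelihood test. TPM was described without a pseudocount. Isoform shares were computed from TPM. Single values per library were compared by exact permutation. Alternatives were DESeq2 1.42.0, limma 3.58.1 on log2(TPM + 1) and log2(TPM + 0.1), RLE scaling, no TMM, other filters, a replicate block and leaving out each library. The procedures were tested on simulated data. Python 3.11.15 with pandas 2.3.3, numpy 2.4.6, scipy 1.17.1 and matplotlib 3.10.9 made summaries and plots.

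The members and lists were chosen with earlier results of these data known. Genes named are the 10 of highest rank, the 5 of highest mean TPM, the 3 with most transcripts and the 3 with the longest, the 3 on each side of the limit, up to 5 past the isoform test and those sharing a cluster. Depth was 32294116 to 47619238 expected counts per library, and the spread between libraries exceeded counting error. No 2 libraries agreed within sampling noise, the smallest ratio of chi-square to degrees of freedom being 15.1.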

Additional observations from a re-analysis of the deposited data

How the results depend on the processing

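Genes called numbered 1556 in edgeR, 578 without a filter on low counts, 618 by limma on log2(TPM + 0.1) and 3921 by DESeq2; those called higher in RWA-SA1 numbered 910, 407 without TMM, 407 without a filter, 382 by limma on log2(TPM + 1), 186 on log2(TPM + 0.1) and 2152 by DESeq2. Calls higher in RWA-SA1 were 58.5% of all calls, 37.7% without TMM, 70.4% without a filter, 23.1% and 30.1% by limma; the median over all genes was -0.21 without TMM and -0.17 and -0.21 by limma. Replicate numbers did not pair the libraries (correlations of -0.13, 0.16 and -0.24); with them as a replicate block edgeR called 0 genes, 0 higher and 0 of the set (5279 genes and 98 of the set at an unadjusted p under 0.05), and 229 genes and 0 of the set in isoform usage. Leaving out 1 library gave 0 to 8876 genes called, 0 to 4369 higher, 0 to 99 of the set, and in isoform usage 216 to 1879 genes and 0 to 11 of the set. Isoform usage called 930 genes and 3 of the set by limma and 955 genes at 10 counts or more. The difference in dominant isoform share was -2.16 to 0.56 percentage points leaving out 1 library, reversing without RWA-SA1 replicate 3 (0.11) or RWA-SAM replicate 3 (0.56), and 1.51 as a mean over genes; that in weighted length was 12.0 to 57.7 bases leaving out 1 library, 0.923 on counts and -31.4 as a mean. The median log2 fold change of the set was 1.21, and 0.86 by limma on log2(TPM + 1). Membership kept 43 to 77 genes leaving out 1 library, 71 on TMM-scaled CPM and 47 on mean TPM. Of 406 fits of named genes under alternatives, 0 reversed and 177 lost the call. All named genes were high in the ranking on this contrast, so the lack of reversals is largely set by their choice and nothing is read from it. Where a value moved, the cause was not tested.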

Other observations

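Among the 12 genes of the set with a mean of 100 TPM or more, 3 had a longest transcript of nearly the same length: TRINITY_DN7358_c0_g1 and TRINITY_DN730_c0_g1 at 1247 bases and TRINITY_DN5774_c0_g1 at 1248 bases. A longest transcript of 1247 or 1248 bases was found in 3% of the set and in 0.103% of the other genes, a comparison made after these lengths were seen and given without a test. The lengths were picked from genes of the set, which favours the set, so nothing is read from the comparison. All 3 genes were lowest among the RWA-SA1 libraries in replicate 1, as were 65 of the 100 genes of the set. TRINITY_DN730_c0_g1 was at 334, 516 and 530.0 TPM in RWA-SA1 replicates 1, 2 and 3, against 229.6, 238 and 183 TPM in RWA-SAM replicates 1, 2 and 3. The most abundant isoform of each had another length, 946 bases in TRINITY_DN7358_c0_g1, 1052 bases in TRINITY_DN5774_c0_g1 and 1174 bases in TRINITY_DN730_c0_g1. No sequences were used here, so whether these genes share reads was not tested.

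TRINITY_DN1801_c0_g1, inside the limit of the set by a narrow margin, varied widely within both biotypes. It was at 52.5, 140 and 65.7 TPM in RWA-SA1, against 21.5, 37.5 and 15.4 TPM in RWA-SAM.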
